A study of Mus musculus with 24 samples.

Results

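The lungs of mice given the diesel exhaust particle N-DEP together with ovalbumin were compared with the lungs of mice given N-DEP alone, so that the only labelled difference between both groups was ovalbumin (OVA), the main protein of egg white, which serves as an allergen in mouse models. The comparison uses 6 of the 24 arrays of the series, 3 titled NDEP/OVA and 3 titled NDEP, and each array is labelled a biological replicate of a group of 3 mice. All animals were female mice of the inbred strain BALB/C, aged 8 to 10 weeks, and the sex, strain, age, route and schedule were shared by every group. The NDEP mice received 150 ug of particles and the NDEP/OVA mice received the same particles with 20 ug OVA, given intranasally at day 0 and again at day 13, and the lungs were removed 18 hours after the second dose. Saline mice (3 arrays), mice given OVA without particles (3 arrays), and mice given the particles A-DEP or C-DEP with or without OVA (12 arrays) serve below as other backgrounds. The labels mark the OVA groups as sensitized and the others as not sensitized.

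Airway allergy to OVA is driven by Th2 lymphocytes and innate lymphoid cells, whose cytokines IL-4 and IL-13 signal through the transcription factor STAT6. In airway epithelium this signal turns club cells into goblet cells, which store gel-forming mucins and secrete proteins such as Clca1. In macrophages it induces arginase and chitinase-like proteins, a state called alternative activation, and in several cell types it induces eotaxins, the chemokines that attract eosinophils. Soot particles, in contrast, mainly call up neutrophil chemokines, colony-stimulating factors and acute phase proteins. Levels below are log2 intensities, so a difference of 1 is a 2-fold change, and differences are given as NDEP/OVA minus NDEP with their standard error (SE). Adjusted p-values come from limma, fitted to all 24 arrays and adjusted by Benjamini-Hochberg over 12393 genes, and a gene is called at an adjusted p of at most 0.05. A group is called dim for a gene where every array of the group had its 25th percentile above the group's mean (this percentile ran from 4.45 to 4.64), a range not shown to lie above background. In bulk tissue, fewer cells of a type and less RNA per cell cannot be told apart.

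Surfactant protein Sftpc (13.6 to 13.8), the club cell secretoglobin Scgb1a1 (13.9 to 14.1) and the alveolar type 1 marker Ager (11.6 to 11.8) lay at percentile 99.4 or higher on all 6 arrays. The 3' minus 5' signal of the Gapdh and Actb control probe sets, which grows as RNA degrades, was 0.14 ± 0.17 and 0.79 ± 0.13 (SD, n = 3) in NDEP against 0.37 ± 0.14 and 1.01 ± 0.07 in NDEP/OVA. An exact two-sided permutation test gave p = 0.2 and p = 0.1. Since 0.1 is the smallest p that 3 against 3 arrays allow, this test cannot show that RNA quality was alike. For Actb, all 3 NDEP/OVA arrays (lowest 0.95) lay above all NDEP arrays (highest 0.93). Genes of heart muscle, a tissue that can be carried along when lungs are removed, averaged 7.51 ± 0.21 in NDEP and 7.08 ± 0.20 in NDEP/OVA over a list of 22. These measures are set beside the results that they move with.

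With OVA added to N-DEP, the lungs had higher expression of mucus and chitinase-like genes, and lower expression of the colony-stimulating factor Csf2, the chemokine Ccl20 and several mitochondrial subunits. Of 16 alternatively activated macrophage genes, 3 were called: the chitinase-like Chil3 and Chil4, already counted above, and the arginase gene Arg1. In all, 14 genes rose (0.113% of genes tested) and 20 fell (0.161%), and 11 (0.0888%) and 2 (0.0161%) of them by at least 2-fold. Before adjustment, 499 genes were higher (4.03%) and 696 lower (5.62%) at p under 0.05. The 3 arrays of both groups did not overlap for 640 genes in the higher direction (5.16%) and 983 in the lower direction (7.93%), and for all 34 genes called. The median difference over all genes was -0.01, with 5805 genes above 0 and 6588 below. The genes that rose differed in size from the genes that fell: the median of the 14 was 1.85 and that of the 20 was -0.70. The falls were also less firm. With each of the 6 arrays left out in turn, 1 of the 20 was called every time, against 9 of the 14.

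**Figure D1:**
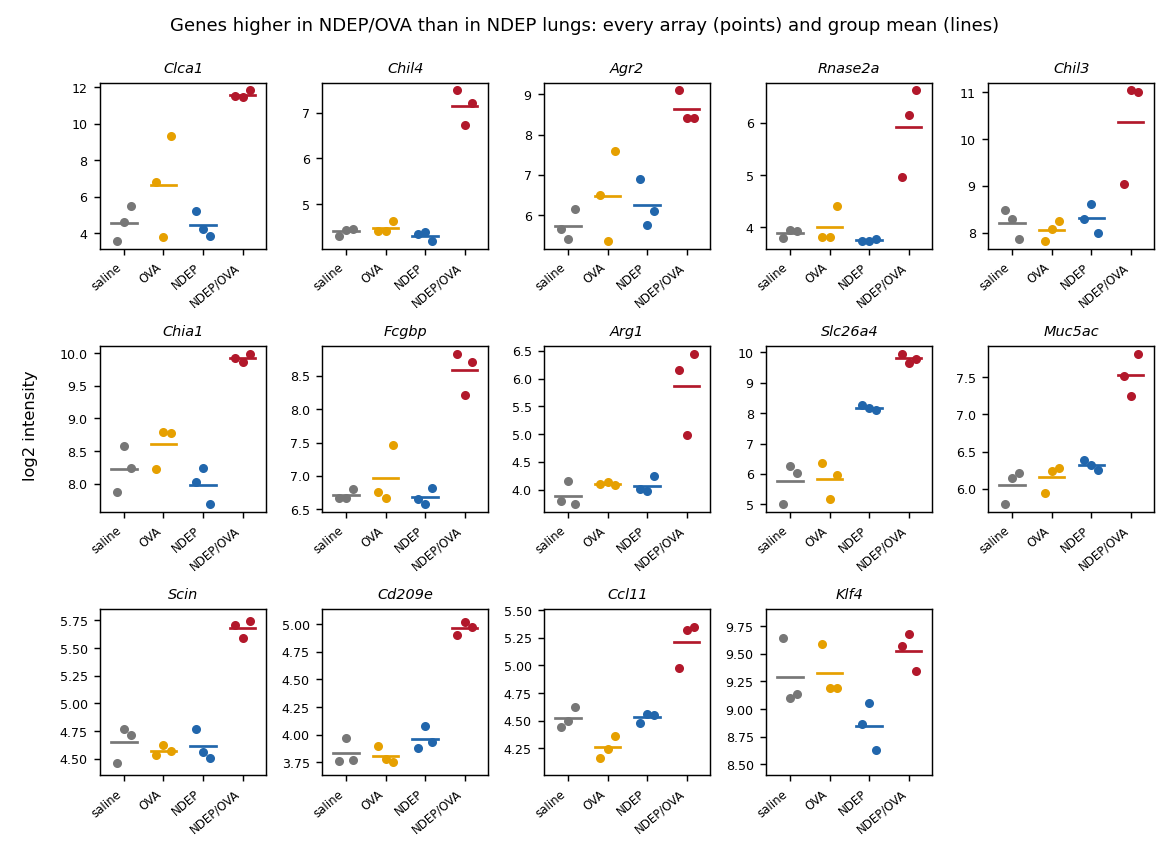
Log2 intensity of the 14 genes that rose, in saline, OVA, NDEP and NDEP/OVA lungs; points are arrays (n = 3 mice a group), lines are group means, and each panel has its own axis. The NDEP/OVA arrays sit above the NDEP arrays in all 14 panels, and the NDEP arrays of Slc26a4 and, narrowly, of Muc5ac already sit above those of saline.

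Goblet cell and mucus genes made up 6 of the 14 genes that rose. Clca1 (Entrez gene 23844), a secreted protein of goblet cells that governs mucus production, read 5.24, 4.20 and 3.82 in NDEP and 11.51, 11.44 and 11.81 in NDEP/OVA. The 3 NDEP/OVA lungs were nearly equal and far above every NDEP lung, a difference of 7.17 ± 0.90 (adjusted p = 7.69e-05). Since Clca1 was dim in NDEP, the size of that difference is uncertain: it was 6.34 when 16 was added to every intensity before taking logs. A second Clca1 probe set, with a mean of 3.79 over all arrays, differed by 1.26 (SE 0.20). With OVA and no particle, the same gene read 6.79, 3.80 and 9.29, against 3.54, 4.59 and 5.48 in saline, so 1 of 3 OVA lungs was within the range of saline.

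Agr2 (Entrez gene 23795), an endoplasmic reticulum protein that mucin folding needs, read 6.90, 5.74 and 6.10 in NDEP and 9.10, 8.40 and 8.42 in NDEP/OVA, a rise of 2.39 ± 0.45 (adjusted p = 0.0146). Fcgbp (Entrez gene 215384), a large protein of the mucus gel, read 6.66, 6.57 and 6.82 without OVA and 8.83, 8.21 and 8.70 with it (1.90 ± 0.25, adjusted p = 0.000133). Muc5ac (Entrez gene 17833), the gel-forming mucin induced in allergic airways, read 6.39, 6.31 and 6.25 and then 7.52, 7.24 and 7.82 (1.21 ± 0.18, adjusted p = 0.000791). Its saline lungs read 5.79, 6.14 and 6.21, slightly below all NDEP lungs. In each of these genes all NDEP/OVA lungs stood above all NDEP lungs, and the NDEP lungs lay close together for Fcgbp and Muc5ac but not for Agr2. Scin (Entrez gene 20259), an actin-severing protein of secretory cells, moved from 4.77, 4.56 and 4.5 to 5.71, 5.59 and 5.74 (1.07 ± 0.17, adjusted p = 0.00283), a call lost with heart and fat covariates (0.95, adjusted p = 0.0695).

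Slc26a4 (Entrez gene 23985) encodes pendrin, an anion exchanger of the airway surface. It read 4.99, 6.27 and 6.01 in saline, 8.27, 8.18 and 8.09 in NDEP, and 9.96, 9.67 and 9.80 in NDEP/OVA, while OVA alone read 6.37, 5.16 and 5.97. Its level in NDEP lungs was thus already above all saline lungs, and OVA added 1.63 ± 0.29 (adjusted p = 0.00985). The call for Slc26a4 was lost without NDEP replicate 3 or NDEP/OVA replicate 1, and that for Agr2 without NDEP replicate 2 or 3 or NDEP/OVA replicate 1. Agr2 was also lost with the RNA quality differences as covariates (1.70, adjusted p = 0.113). A second Agr2 probe set, with a mean of 3.05 over all arrays, differed by 0.26.

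Of the 17 goblet cell and mucus genes measured, 6 rose, 0 fell, and 12 were higher before adjustment. Over all genes, 0.113% rose and 4.03% were higher before adjustment. The list median was 0.80 against -0.01 over all genes. The members that did not pass included the trefoil peptide Tff2 (0.80 ± 0.23, adjusted p = 0.168), the mucin Muc5b (0.87 ± 0.28, adjusted p = 0.242) and the secretory protein Bpifb1 (0.98 ± 0.31, adjusted p = 0.252). The lectin Itln1 differed by 0.62 ± 0.19 (adjusted p = 0.236). Spdef and Foxa3, transcription factors of goblet cell differentiation, differed by 0.43 ± 0.16 and 0.41 ± 0.14 (adjusted p = 0.336 and 0.3), and Foxa3 was dim in both groups. The trefoil peptide Tff1 was the 1 member below 0 (-0.12 ± 0.12). With RNA quality covariates the list median was 0.53. Club cell genes, the cells from which goblet cells arise, had 0 of 10 members called and a median of -0.13, or 0.08 with heart and fat covariates.

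Chitinase family genes also rose. Chia1 (Entrez gene 81600) is an active chitinase of airway epithelium, whereas Chil3 and Chil4, also known as Ym1 and Ym2, bind sugars without cutting chitin and form crystals in allergic lungs. Of 4 members measured, 3 rose. The exception was Chil1, which read 12.27, 12.35 and 12.45 in NDEP and 12.49, 12.16 and 12.34 in NDEP/OVA (-0.02 ± 0.21), with overlapping groups.

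Chil4 (Entrez gene 104183) read 4.35, 4.40 and 4.18 in NDEP, where it was dim, and 7.49, 6.72 and 7.22 in NDEP/OVA, a rise of 2.83 ± 0.27 (adjusted p = 1.62e-06). Chil3 (Entrez gene 12655) read 8.28, 8.62 and 8.00 and then 9.04, 11.04 and 11.01 (2.06 ± 0.33, adjusted p = 0.00283). NDEP/OVA replicate 1 was thus much lower in Chil3 than the other 2 NDEP/OVA lungs, although it was the highest of the 3 in Chil4. Chia1 read 8.03, 8.24 and 7.68 and then 9.92, 9.87 and 9.99, with nearly equal NDEP/OVA lungs (1.94 ± 0.24, adjusted p = 5.58e-05). Near-identical paralogs such as Chil3 and Chil4, or members of the Ear ribonuclease family, may share signal on an array, and their probe sets were taken as annotated.

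Chil4 and Chil3 are neighbours on chromosome 3, and their promoters are shown because both genes rose together and hold 1 copy of a STAT-type motif. STAT proteins bind palindromes with TTC and GAA at a spacing of 3 or 4 bases, TTCNNNGAA or TTCNNNNGAA, whose fixed letters read the same on both strands; each spacing was searched separately, and copies of both may overlap. The RefSeq table for GRCm38.p6 held windows, 250 bases before to 50 after the start, for 10 of the 14 genes that rose and 17 of the 20 that fell. TTCNNNGAA stood in 2 of the 10 (Chil3 and Chil4) and 0 of the 17, against 8.30% of all 32851 windows. TTCNNNNGAA stood in 1 of the 10 (Cd209e) and 1 of the 17 (Ndufc1), against 6.95%. The 3 sequences below are the 250 bases before the start, 5′ to 3′ on the minus strand, with the motif in capitals: Chil4 at chr3:106219480-106219729, Chil3 at chr3:106167565-106167814 and Cd209e at chr8:3854287-3854536.
Chil4: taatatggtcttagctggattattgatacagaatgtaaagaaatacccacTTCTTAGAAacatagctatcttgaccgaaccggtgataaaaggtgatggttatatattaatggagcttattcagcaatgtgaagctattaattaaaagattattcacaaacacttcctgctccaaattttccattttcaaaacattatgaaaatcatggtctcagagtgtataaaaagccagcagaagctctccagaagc
Chil3: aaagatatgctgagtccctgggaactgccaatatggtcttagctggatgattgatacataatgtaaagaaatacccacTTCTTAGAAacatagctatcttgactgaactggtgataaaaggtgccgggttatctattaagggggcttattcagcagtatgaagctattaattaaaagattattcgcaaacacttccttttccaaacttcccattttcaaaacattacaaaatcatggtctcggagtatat
Cd209e: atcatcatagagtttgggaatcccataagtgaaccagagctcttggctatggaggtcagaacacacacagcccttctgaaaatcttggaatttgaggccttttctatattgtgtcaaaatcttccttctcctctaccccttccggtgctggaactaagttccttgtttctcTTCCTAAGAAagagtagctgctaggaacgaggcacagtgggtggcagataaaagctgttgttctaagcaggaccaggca
The motif begins 200 bases before the start of Chil4, 172 before that of Chil3 and 79 before that of Cd209e. Aligned without penalty at the ends, the Chil4 and Chil3 stretches were identical at 201 of 223 positions (90.1%), and both hold TTCTTAGAA. A match is a description of these letters and was not tied to binding.

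Alternatively activated macrophage genes included the chitinase-like genes Chil3 and Chil4 and the enzyme Arg1 (Entrez gene 11846), which turns arginine into ornithine. Arg1 was dim in NDEP at 4.0, 3.97 and 4.24 and read 6.16, 4.98 and 6.45 in NDEP/OVA, so the groups did not overlap but NDEP/OVA replicate 2 was clearly lower (1.79 ± 0.33, adjusted p = 0.0125). Its call was lost without NDEP replicate 1 or 2 or NDEP/OVA replicate 1 or 3, and with 16 added to every intensity (1.20, adjusted p = 0.116). Of 16 members measured, 3 rose, 0 fell and 10 were higher before adjustment, with a median of 0.41. Over all genes, 0.113% rose and 4.03% were higher before adjustment. The mannose receptor Mrc1 read 8.29, 8.45 and 8.45 and then 8.76, 8.92 and 9.33 (0.61 ± 0.14, adjusted p = 0.0739). The galactose lectins Clec10a (0.57 ± 0.15) and Mgl2 (0.58 ± 0.16) did not pass either (adjusted p = 0.129 and 0.134). Retnla, a secreted product of such macrophages and of epithelium, was already high in NDEP at 12.46, 12.40 and 12.90 and read 13.62, 13.35 and 13.58 with OVA, without overlap but short of a call (0.93 ± 0.44, adjusted p = 0.508).

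Cd209e (Entrez gene 170780), a C-type lectin of the SIGN family, read 3.88, 4.08 and 3.94 in NDEP and 4.90, 5.02 and 4.97 in NDEP/OVA (1.00 ± 0.11, adjusted p = 3.24e-05). It was dim in NDEP, and its NDEP/OVA lungs lay very close together. General monocyte and macrophage markers had 0 of 21 called, a median of -0.05 and 4 members lower before adjustment, among them the lipopolysaccharide receptor subunit Cd14 (-0.68 ± 0.23, adjusted p = 0.299; -0.03 with heart and fat covariates) and the complement subunit C1qa (-0.42 ± 0.14, adjusted p = 0.303). Dendritic cell genes had 0 of 17 called and a median of 0.03. Over all genes, 0.113% rose and 0.161% fell, and 5.62% were lower before adjustment.

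Eosinophil-related genes gave a divided picture. Rnase2a (Entrez gene 93726, formerly Ear11), an eosinophil-associated ribonuclease that alternatively activated macrophages can also make, read 3.74, 3.73 and 3.77 in NDEP and 4.97, 6.15 and 6.62 in NDEP/OVA (2.17 ± 0.26, adjusted p = 5.58e-05). It was dim in NDEP, and NDEP/OVA replicate 1 was the lowest of its group, as in Chil3. The eotaxin Ccl11 (Entrez gene 20292) moved from 4.48, 4.56 and 4.55 to 4.97, 5.32 and 5.35 (0.68 ± 0.14, adjusted p = 0.0226), again from a dim level. Ccl11 lost its call without any 1 of the 3 NDEP arrays or without NDEP/OVA replicate 2 or 3, and with heart and fat covariates (0.70, adjusted p = 0.0823). The other eotaxin, Ccl24, differed by 0.44 ± 0.18 (adjusted p = 0.397).

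Defining eosinophil genes did not pass. Eosinophil peroxidase Epx read 4.20, 4.02 and 3.96 in NDEP and 3.89, 3.87 and 3.89 in NDEP/OVA, and the major basic protein Prg2 read 3.70, 3.77 and 3.70 and then 3.88, 3.91 and 3.83. Both were dim in both groups (-0.18 ± 0.11 and 0.15 ± 0.11), as were the receptors Ccr3, Il5ra and Siglecf. In the eosinophil list 1 of 10 members was called, 7 of the 10 were dim in both groups, and the median was 0.03. Ear3, another ribonuclease of the family, differed by 0.41 ± 0.15 (adjusted p = 0.349) and the lipoxygenase Alox15 by 0.26 ± 0.12 (adjusted p = 0.48).

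The Th2 cytokines themselves were not called. Il4 differed by 0.18 ± 0.12, Il5 by 0.03 ± 0.12 and Il13 by 0.16 ± 0.10, with 95% confidence intervals of -0.07 to 0.43, -0.22 to 0.28 and -0.05 to 0.37. Il4 and Il5 were dim in both groups and Il13 in NDEP, so a low level of these transcripts was not detectable here. Of 16 genes for Th2 cytokines, their receptors and their signalling, 0 passed in either direction, and the one with the smallest p was the transcription factor Gata3 (-0.37 ± 0.12, adjusted p = 0.299). The epithelial alarmin Il33 read 7.72, 7.99 and 7.56 in NDEP and 7.59, 8.40 and 8.16 in NDEP/OVA, with overlap (0.30 ± 0.22). Lists of mast cells and basophils (0 of 14), B and plasma cells (0 of 20), T cells (0 of 22) and NK cells (0 of 16) held no called gene, with medians of 0.01, 0.05, -0.04 and 0.00. Over all genes, 0.113% rose and 0.161% fell. A count of 0 in lists of this size, the Th2 list included, does not show that these genes or cells were unchanged.

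Klf4 (Entrez gene 16600), a transcription factor of epithelium and of alternatively activated macrophages, completed the genes that rose. It read 8.86, 9.06 and 8.63 in NDEP and 9.57, 9.68 and 9.34 in NDEP/OVA (0.68 ± 0.14, adjusted p = 0.0276), against 9.64, 9.10 and 9.14 in saline, so the NDEP lungs were the low group. A second Klf4 probe set of similar brightness differed by 0.19 ± 0.14. The call rested on several arrays, being lost without NDEP replicate 1 or 3 or NDEP/OVA replicate 1 or 2, and with either pair of covariates.

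**Figure D2:**
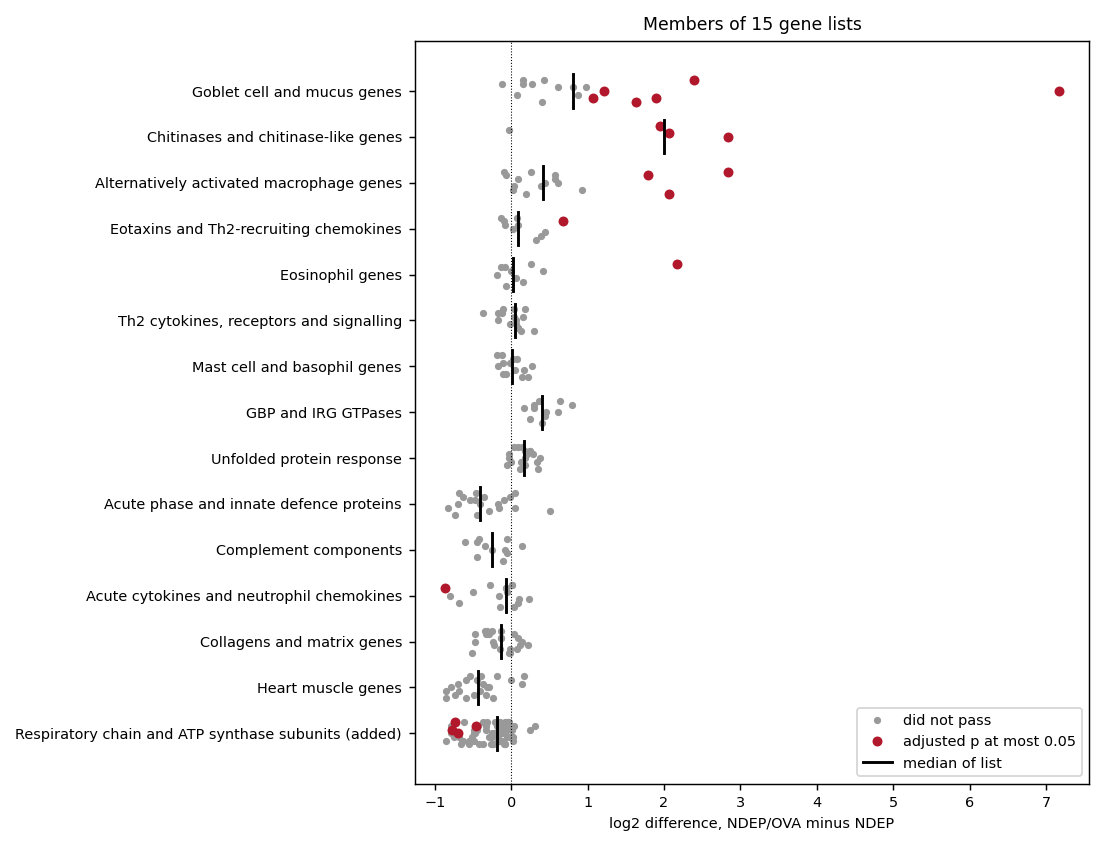
Log2 difference, NDEP/OVA minus NDEP, of every measured member of 15 gene lists; red points passed an adjusted p of at most 0.05, grey points did not, and black lines are list medians. Goblet cell, chitinase and alternatively activated macrophage genes lie to the right (medians 0.80, 2.00 and 0.41), and acute phase, heart muscle and respiratory chain genes to the left (medians -0.40, -0.43 and -0.18). With heart and fat covariates the acute phase median was 0.07 and the respiratory chain median -0.15. The heart muscle median was then -0.08, but its own list mean was a covariate, so this fit cannot check it. The respiratory chain list shares members with the heart muscle list.

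The secreted signals of acute inflammation Csf2 and Ccl20 were among the genes that fell, and the enzyme Vnn1 is given beside them. Csf2 (Entrez gene 12981), the granulocyte-macrophage colony-stimulating factor GM-CSF, read 6.75, 6.66 and 6.98 in NDEP and 5.98, 5.93 and 5.89 in NDEP/OVA, against 5.18, 5.71 and 5.67 in saline. NDEP/OVA lungs thus lay below every NDEP lung and slightly above every saline lung, a fall of 0.86 ± 0.13 on the log2 scale (adjusted p = 0.00173). Ccl20 (Entrez gene 20297), the chemokine for cells with the receptor CCR6, read 6.77, 6.36 and 6.63 and then 6.18, 5.63 and 5.85, with saline at 5.53, 5.87 and 6.01 (-0.70 ± 0.14, adjusted p = 0.0186). Vnn1 (Entrez gene 22361), the pantetheinase vanin 1, read 7.28, 7.74 and 7.86 and then 6.73, 6.71 and 6.70, with saline at 5.36, 5.60 and 5.75 (-0.92 ± 0.18, adjusted p = 0.02).

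Of these, Csf2 kept its call with any 1 of the 6 arrays left out, with differences between -0.93 and -0.77, and lost it with heart and fat covariates (-0.72, adjusted p = 0.0784). Ccl20 lost it without NDEP replicate 1 or 3 or NDEP/OVA replicate 2 or 3, and Vnn1 without NDEP replicate 2 or 3 or NDEP/OVA replicate 1 or 3. Other acute signals did not pass. The neutrophil chemokines Cxcl1 (7.47, 7.31 and 7.77 in NDEP, 6.81, 6.53 and 6.80 in NDEP/OVA) and Cxcl2 differed by -0.81 ± 0.33 and -0.69 ± 0.27 (adjusted p = 0.43 and 0.37), the macrophage chemokine Ccl3 by -0.87 ± 0.23 (adjusted p = 0.134) and Ccl2 by -0.11 ± 0.22. With heart and fat covariates the differences of Cxcl1 and Cxcl2 were 0.02 and 0.04, so their direction turned. In the list of acute cytokines and neutrophil chemokines 1 of 16 members fell, and the median was -0.07, or 0.11 with heart and fat covariates.

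Acute phase and innate defence proteins had 0 of 19 members called, 16 of the 19 below 0, 5 of them before adjustment, and a median of -0.40. Over all genes, 6588 of 12393 lay below 0 and 5.62% were lower before adjustment. The list median lay between -0.47 and -0.16 with 1 array left out and turned to 0.07 with heart and fat covariates. Itih4, a plasma protein of the acute phase, read 10.49, 10.43 and 10.12 in NDEP and 9.44, 9.5 and 9.61 in NDEP/OVA, without overlap (-0.83 ± 0.23, adjusted p = 0.137). S100a8, a calcium-binding protein of neutrophils, read 7.92, 7.56 and 7.60 and then 6.43, 6.94 and 7.51 (-0.74 ± 0.28, adjusted p = 0.361). Saa3 and Orm1 differed by -0.69 ± 0.49 and -0.63 ± 0.38 (adjusted p = 0.698 and 0.633), and by 0.32 and 0.07 with heart and fat covariates. Complement components had 0 of 11 called and 6 lower before adjustment, with a median of -0.25. The NF-kB feedback genes Relb (-0.43 ± 0.13, adjusted p = 0.195), Nfkbiz (-0.36 ± 0.12) and Tnfaip3 (-0.31 ± 0.13) were the lowest p of a list with 0 of 15 called.

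Cx3cr1 (Entrez gene 13051), the fractalkine receptor of monocytes and some macrophages, read 6.25, 6.48 and 6.28 in NDEP and 5.43, 5.72 and 5.99 in NDEP/OVA (-0.63 ± 0.13, adjusted p = 0.0235), and its second probe set gave -0.41. Vcan, a matrix proteoglycan that monocytes also make, fell by 0.61 on the log2 scale (SE 0.13, adjusted p = 0.0338), but its other 2 probe sets were at -0.02 and -0.12. Serpinf1, the secreted antiangiogenic protein PEDF, read 8.17, 7.94 and 7.93 and then 7.54, 7.40 and 7.54 (-0.52 ± 0.09, adjusted p = 0.00843), and a second probe set gave -0.50. Its call was lost without NDEP replicate 1 and with heart and fat covariates (-0.56, adjusted p = 0.0511). Ifi27l2a, an interferon-inducible mitochondrial protein, read 8.99, 8.88 and 8.74 and then 7.23, 8.19 and 8.09, so NDEP/OVA replicate 1 was by far the lowest (-1.04 ± 0.19, adjusted p = 0.00985). Its call was lost without NDEP replicate 1 or NDEP/OVA replicate 1.

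**Figure D3:**
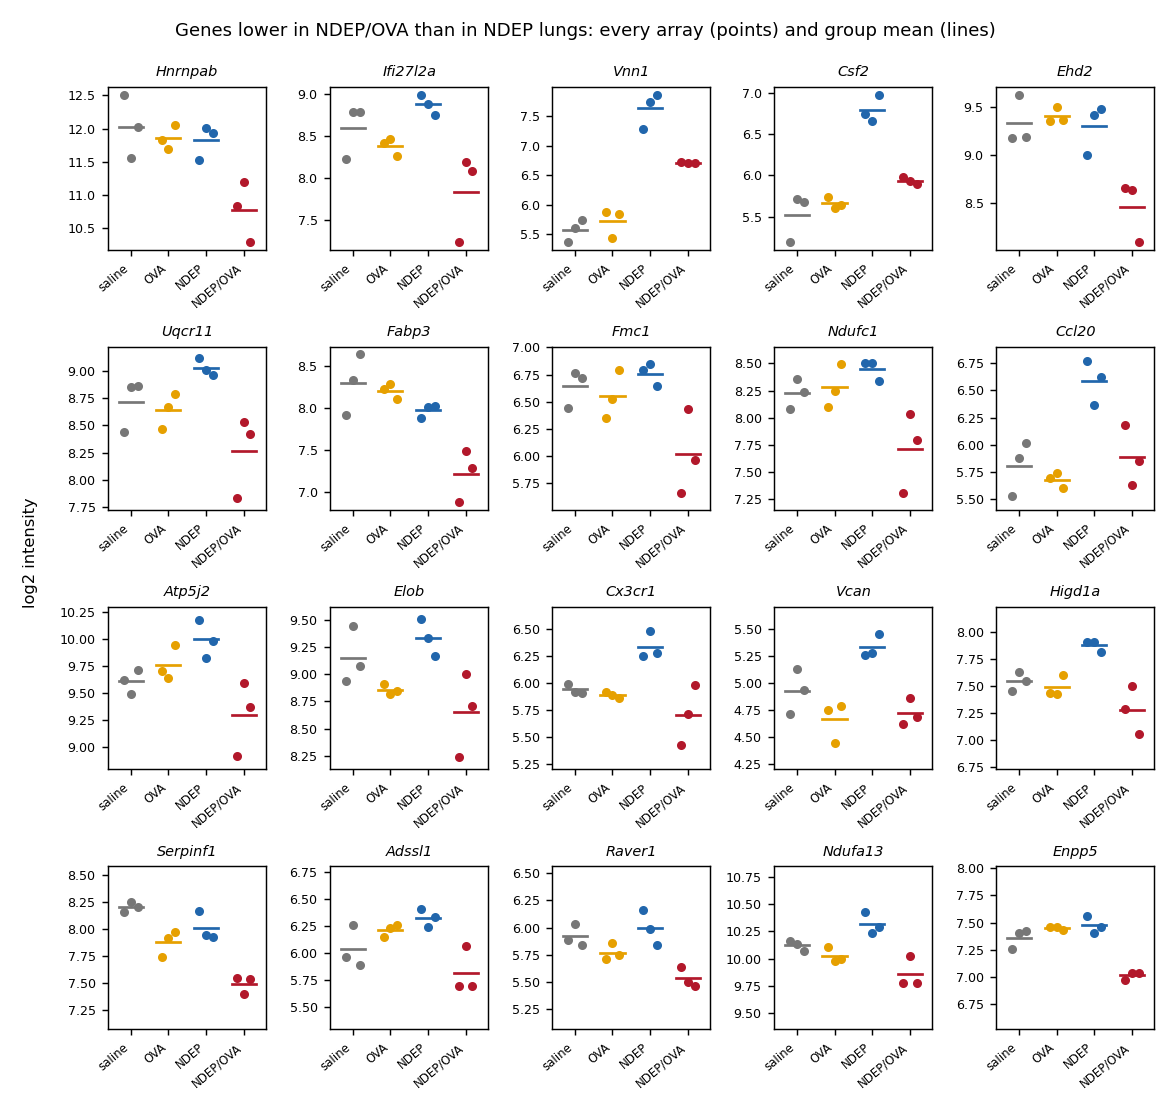
Log2 intensity of the 20 genes that fell, in saline, OVA, NDEP and NDEP/OVA lungs; points are arrays (n = 3 mice a group), lines are group means, and each panel has its own axis. NDEP/OVA arrays sit below NDEP arrays in all 20 panels, and NDEP/OVA replicate 1 is the lowest array in the panels of Uqcr11, Ndufc1, Atp5j2, Fmc1 and Elob.

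A further group of falls concerned mitochondria. Uqcr11 (respiratory complex III) read 9.12, 9.01 and 8.96 in NDEP and 7.83, 8.54 and 8.42 in NDEP/OVA (-0.77 ± 0.17, adjusted p = 0.0482). Ndufc1 (complex I) read 8.5, 8.5 and 8.34 and then 7.30, 8.04 and 7.80 (-0.74 ± 0.16, adjusted p = 0.0368), and its second probe set gave -0.76. Atp5j2 (ATP synthase) read 10.17, 9.82 and 9.98 and then 8.92, 9.60 and 9.37 (-0.70 ± 0.15, adjusted p = 0.032). In each the groups did not overlap, and NDEP/OVA replicate 1 was the lowest array.

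Fmc1, an assembly factor of ATP synthase, fell by 0.74 (SE 0.15), Higd1a, a hypoxia-induced protein of the inner membrane, by 0.59 (SE 0.12), and Ndufa13 of complex I by 0.46 (SE 0.09), all on the log2 scale (adjusted p = 0.0276, 0.0189 and 0.0146). The brightest Higd1a probe set was the one called, and the other 2 gave 0.13 and -0.08. A list of all 79 measured respiratory chain and ATP synthase subunits, drawn up after these values were seen, had 4 members called, 35 lower and 1 higher before adjustment, and 71 below 0. Over all genes, 0.161% were called lower, 5.62% were lower and 4.03% higher before adjustment, and 6588 of 12393 lay below 0. The list median was -0.18 against -0.01 over all genes. The mean level of the list was 9.25, 9.21 and 9.21 in the NDEP lungs and 8.83, 9.04 and 9.0 in the NDEP/OVA lungs, without overlap, against 8.99, 9.15 and 9.17 in saline. All 4 called subunits lost their call without NDEP/OVA replicate 1, and the list median was then -0.16.

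Fabp3 (Entrez gene 14077), the fatty acid binding protein of heart muscle, read 7.87, 8.01 and 8.02 in NDEP and 6.88, 7.48 and 7.29 in NDEP/OVA (-0.75 ± 0.16, adjusted p = 0.044). The heart muscle list had 0 of 22 members called but 13 lower before adjustment, against 5.62% of all genes, with a median of -0.43. It included Cox6a2 (-0.79 ± 0.18, adjusted p = 0.0601) and Myoz2 (-0.86 ± 0.22, adjusted p = 0.123). Myl7, a light chain of atrial muscle, read 10.11, 10.43 and 10.80 and then 9.29, 10.10 and 9.73. Of the 22 members, 1 (Myl2) was dim in both groups. The median of the 10 fat genes was -0.02.

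Of the remaining genes that fell, the caveolar ATPase Ehd2 read 9.0, 9.42 and 9.48 in NDEP and 8.66, 8.63 and 8.08 in NDEP/OVA (-0.84 ± 0.16, adjusted p = 0.0166), and its other 2 probe sets gave -0.32 and 0.13. Hnrnpab, an RNA-binding protein, had the lowest value of the 20 (-1.05 ± 0.23, adjusted p = 0.0482), but its other 6 probe sets lay between -0.11 and 0.08. Elob, a subunit of the elongin complex, fell by 0.69 (SE 0.15, adjusted p = 0.0482), and its second probe set gave -0.41. Enpp5, Raver1 and Adssl1, named here after their values were seen, as were Serpinf1 and Ndufa13, fell by 0.46, 0.47 and 0.51 on the log2 scale.

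With each of the 6 arrays left out in turn, 9 of the 14 higher genes were called every time, against 1 of the 20 lower genes (Csf2). The number of genes called lower was 5, 8 and 4 without NDEP replicates 1, 2 and 3, and 6, 54 and 6 without NDEP/OVA replicates 1, 2 and 3. The number called higher stood between 11 and 22. The fit was repeated with the Gapdh and Actb differences, and then with the heart and fat list means, as covariates. With the RNA quality differences, 12 of the 14 and 5 of the 20 were called, and with heart and fat scores 11 of the 14 and 1 of the 20 (Ifi27l2a), while all 34 kept their sign in both fits. The median of the 20 was then -0.62 and -0.63. Of the 14, Arg1, Ccl11 and Klf4 were not called with 16 added, Agr2, Arg1 and Slc26a4 with a trended robust variance, and Chil3, Arg1, Ccl11 and Klf4 with only the compared groups fitted.

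**Figure D4:**
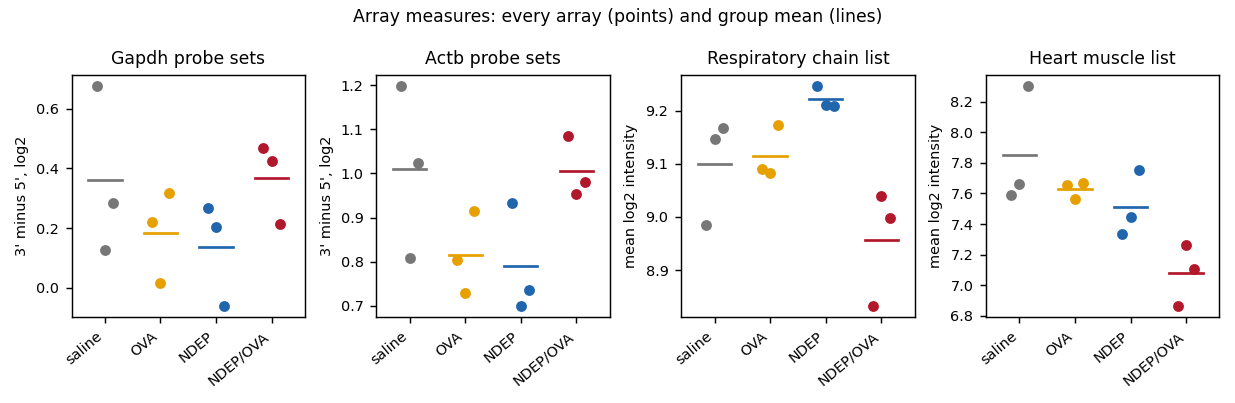
The 3' minus 5' log2 difference of the Gapdh and Actb control probe sets and the mean log2 intensity of the respiratory chain and heart muscle lists, by array (points, n = 3 mice a group) with group means (lines). The Actb difference is higher, and both list means are lower, in all 3 NDEP/OVA lungs than in any NDEP lung.

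Whether OVA acted differently on N-DEP lungs than on saline lungs was tested as the difference of both OVA contrasts, which share no array. OVA on saline gave 0 genes higher (0%) and 0 lower (0%) by limma, with 818 genes at an unadjusted p under 0.05; the 3 of smallest p were the mitochondrial import protein Timm10b (0.59), the phosphate transporter Slc34a2 (0.59) and the ribosomal protein gene Rps4l (0.73). The difference itself passed for 3 genes (0.0242%), all larger on N-DEP. Chil4 had an OVA difference of 2.83 ± 0.27 on N-DEP and 0.08 ± 0.27 on saline, 2.75 ± 0.38 apart (adjusted p = 0.00177). For Rnase2a the values were 2.17 ± 0.26 and 0.11 ± 0.26 (2.05 ± 0.37 apart, adjusted p = 0.0386), and for Cd209e 1.00 ± 0.11 and -0.02 ± 0.11 (1.02 ± 0.16 apart, adjusted p = 0.00855). All 3 genes were dim in the saline and OVA lungs, so their OVA differences on saline compare dim levels.

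Chil4 and Cd209e kept this call with any 1 of the 12 arrays left out, while Rnase2a kept it in 2 of 12 such fits, those without OVA replicate 3 or NDEP/OVA replicate 1. The Chil4 call was lost with RNA quality covariates (2.07, adjusted p = 0.0695), that of Cd209e with heart and fat covariates (1.03, adjusted p = 0.0823), and that of Rnase2a with either pair (2.37 and 1.70, adjusted p = 0.0684 and 0.187). Clca1 did not pass, with OVA differences of 7.17 ± 0.90 and 2.09 ± 0.90 (5.08 ± 1.27 apart, adjusted p = 0.271), and its 3 OVA lungs ranged from 3.80 to 9.29. Muc5ac (1.10 ± 0.25, adjusted p = 0.173), Fcgbp (1.65 ± 0.35) and Chia1 (1.57 ± 0.33, both adjusted p = 0.113) were also larger on N-DEP without passing, and Csf2 differed by -1.0 ± 0.19 (adjusted p = 0.0608).

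**Figure D5:**
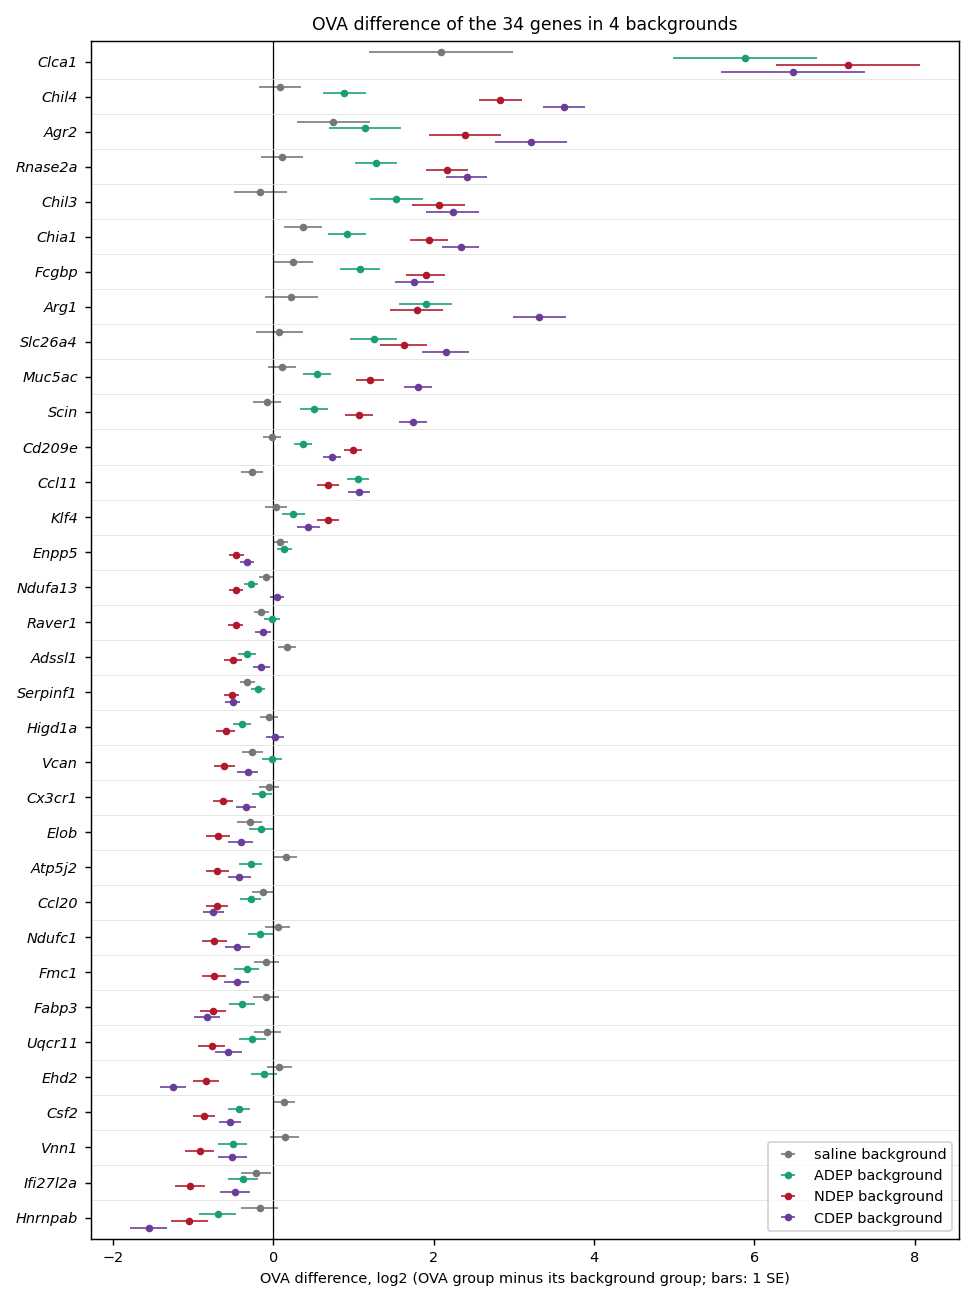
OVA difference (log2, OVA group minus its own background, bars 1 SE from the limma fit, 3 against 3 arrays) of the 34 genes in saline, ADEP, NDEP and CDEP lungs. The 14 genes that rose on NDEP lie above 0 on ADEP and CDEP too, and their median on saline is 0.10.

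On both other particles, all 14 higher genes had OVA differences above 0. OVA on ADEP raised 6 genes in all (0.0484%) and lowered 2 (0.0161%), and 3 of the 6 were among the 14, namely Clca1, Arg1 and Ccl11. OVA on CDEP raised 238 (1.92%) and lowered 206 (1.66%), and 13 of the 14 were among the 238, all but Klf4 (0.44 ± 0.14, adjusted p = 0.0764). Those 13 were 92.9% of the N-DEP list and 5.46% of the longer C-DEP list. The median OVA difference of the 14 was 0.10 on saline, 1.07 on ADEP, 1.85 on NDEP and 2.19 on CDEP. Since the 14 were chosen by the NDEP contrast, that choice can raise the NDEP median, which is not like for like with the others. Of the 20 lower genes, 7 were also called lower on CDEP (35% of the 20 and 3.40% of the 206), among them Csf2, Ccl20, Fabp3 and Ehd2, and 0 on ADEP. Of the same 20, 19 lay below 0 on ADEP, 18 on CDEP and 13 on saline. By limma, 10, 16 and 1 of them were lower at an unadjusted p under 0.05. Over all 12393 genes, 5705 lay below 0 on ADEP, 6474 on CDEP and 6959 on saline.

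A direct test of the OVA difference on N-DEP against that on A-DEP passed for 0 genes (0%), with 978 at an unadjusted p under 0.05. The smallest p belonged to Chil4 (2.83 against 0.89, 1.94 ± 0.38 apart, adjusted p = 0.327), Enpp5 (0.60 ± 0.13 lower on N-DEP) and the calponin-related Clmn (0.73 ± 0.17 higher, both adjusted p = 0.604). For Muc5ac the difference was 0.66 ± 0.25 and for Arg1 -0.11 ± 0.47, so these arrays do not show that both particles act alike or apart for single genes.

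Against C-DEP, 1 gene passed (0.00807%). Gbp6, an interferon-inducible GTPase, had an OVA difference of 0.61 ± 0.21 on N-DEP and 2.41 on C-DEP, -1.80 ± 0.30 apart (adjusted p = 0.0324). In NDEP lungs it read 5.68, 5.57 and 5.45 without OVA and 6.46, 5.69 and 6.38 with it, so NDEP/OVA replicate 2 was nearly at the NDEP level. Gbp6 kept this call in 3 of 12 fits with 1 array left out, those without NDEP/OVA replicate 1 or 3 or CDEP/OVA replicate 3. The whole list of GBP and IRG GTPases had 0 of 11 members called on N-DEP, all 11 above 0 and a median of 0.40, against 1.43 on C-DEP, and the chemokine Cxcl9 differed by 1.10 ± 0.33 (adjusted p = 0.2) and 3.02 in the same order. Across all 12393 genes the OVA differences on N-DEP correlated with those on saline, ADEP and CDEP at r = 0.17, 0.31 and 0.54, and at 0.13, 0.17 and 0.43 without the 34 called genes. These are descriptions across genes, which are not independent replicates, between contrasts that share no array.

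Other lists are given for their values. Alveolar type 2 (0 of 14), alveolar type 1 (0 of 8), ciliated (0 of 9) and endothelial (0 of 21) genes had no member called and medians between -0.08 and 0.09. Over all genes, 0.113% rose and 0.161% fell, so 0 called in lists of this size does not show that these cells were unchanged. Before adjustment, 4.03% of all genes were higher. Collagen and matrix genes had 0 of 23 called and 6 lower before adjustment, against 5.62% of all genes, with the lowest p for Col1a1 (-0.48 ± 0.14, adjusted p = 0.212). Targets of the aryl hydrocarbon receptor, which senses the aromatic compounds on soot, showed Cyp1a1 at -0.09 ± 0.26 and Cyp1b1 at -0.32 ± 0.22 (0.23 with heart and fat covariates), while Aldh3a1 read 6.05, 5.80 and 5.89 in NDEP and 5.31, 5.16 and 5.15 in NDEP/OVA, without overlap and short of a call (-0.71 ± 0.17, adjusted p = 0.0815). The antioxidant enzyme Hmox1 differed by -0.11 ± 0.16, and by 0.07 and 0.11 with RNA quality and with heart and fat covariates. Unfolded protein response genes had 0 of 20 called, 4 higher before adjustment and a median of 0.17, led by the chaperone Hspa5 (0.33 ± 0.12, adjusted p = 0.348).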

How the data were processed

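Whole-lung RNA (2 ug labelled) was measured on 24 Affymetrix arrays, 8 groups of 3 mice. The values deposited by the authors are intensities on a linear scale, made with RMA per the submitters' processing notes (version not given in the sources used here), and their log2 was taken here. RMA compresses changes at low signal. The arrays hold 22690 probe sets, of which 20380 had 1 gene symbol, 691 several and 1555 none, with 64 controls left out, and the probe set of highest mean log2 stood for each of 12393 genes. One model of 8 group means was fitted to all arrays with limma 3.58.1 in R 4.3.3, with 16 residual degrees of freedom. Adjusted p-values are limma's, by Benjamini-Hochberg within each contrast. The fit was tested on simulated data.

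Named were the 15 highest and 15 lowest called genes whose arrays did not overlap, up to 5 members of smallest p of each list described, the called differences between backgrounds (or the 3 of smallest p), and 23 genes always given. Other list members named were added after their values were seen. Members and lists (43 lists, 602 genes measured) were chosen with earlier results of these data known. Promoter motifs were read from the RefSeq table, and the alignment was made with Biopython 1.88. The labels call the arrays biological replicates. No 2 arrays were copies (correlations of 0.986 to 0.995). With arrays, depth does not apply, and 3 a group limits the precision.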

Additional observations from a re-analysis of the deposited data

Results flagged for a closer look

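The OVA difference differed between backgrounds, by limma's test of the difference itself with Benjamini-Hochberg adjustment, for 4 genes. It was larger on N-DEP than on saline for Chil4 (2.75, adjusted p = 0.00177), Rnase2a (2.05, adjusted p = 0.0386) and Cd209e (1.02, adjusted p = 0.00855). All 3 were among the 34 genes called on N-DEP, none of which overlapped between NDEP and NDEP/OVA arrays, so their separation adds no evidence here. With 1 array left out, the Chil4 difference ranged from 2.58 to 2.96 and that of Cd209e from 0.95 to 1.08. Rnase2a, which ranged from 1.70 to 2.53, was called in 2 of 12 such fits, those without OVA replicate 3 or NDEP/OVA replicate 1. All 3 genes were dim in the saline, OVA and NDEP lungs, so each size depends on how a dim level is read. Their OVA differences on saline compare dim levels and do not show that OVA had no effect there. None of the 3 was called after adding 16 to every intensity. The Chil4 and Rnase2a calls were also lost with RNA quality covariates, and the Cd209e and Rnase2a calls with heart and fat covariates. Rnase2a further lost its call after quantile normalization, with a trended robust variance and with only the compared groups fitted. Gbp6 had a smaller OVA difference on N-DEP than on C-DEP (-1.80, adjusted p = 0.0324), called in 3 of 12 fits with 1 array left out.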

How the results depend on the processing

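All 34 genes called kept their direction under every alternative run. The 14 higher calls became 25 over all probe sets and 11 to 22 with 1 array left out. The 20 lower calls became 43 over all probe sets, 10 after a further quantile normalization, 11 with 16 added, 4 with only the compared groups fitted, 9 with RNA quality covariates, 7 with heart and fat covariates, and 4 to 54 with 1 array left out. The 2 lower calls of at least 2-fold became 5 over all probe sets, 0 with 16 added or only the compared groups, 1 after quantile normalization, with a trended robust variance or with either pair of covariates, and 0 to 6 with 1 array left out.

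The 3 genes whose OVA difference differed between N-DEP and saline became 8 over all probe sets, 0 with 16 added, 13 with array weights, 6 with only the compared groups, 1 with RNA quality covariates, and 2 to 6 with 1 array left out. The 0 calls for OVA on saline became 12 with array weights and 0 to 1 with 1 array left out, and the 0 against A-DEP became 1 with only the compared groups. The 1 call against C-DEP became 0 over all probe sets, after quantile normalization, with 16 added, with a trended robust variance, with only the compared groups or with heart and fat covariates, 6 with array weights, 2 with RNA quality covariates, and 0 to 10 with 1 array left out. The causes were not tested.

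The labels do not say what arrays of the same replicate number share. Deviations of same-numbered NDEP and NDEP/OVA arrays correlated at -0.07, 0.08 and -0.09. Whether the number marks a shared batch was not tested. With the replicate number as a block, 20 genes were higher and 34 lower, including all 34 called without it, and 7 differed between N-DEP and saline. Levels dim in NDEP limit the sizes of 6 of the 14 rises.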
